A study of Mus musculus with 2 samples.

Results

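The cells that the authors annotated as Myoblast/Cardiomyocyte in E11.5 mouse embryos were examined for how many carry skeletal or cardiac muscle genes and for what the other cells express. They were chosen by that name in the deposited cell table and joined by cell barcode to the UMI counts of 4 cell suspensions, which gave 644 of the 5678 cells of the table. All 644 came from 1 cluster of the authors, and no barcode was shared between suspensions. F0_8 and F0_9 are founder embryos that carry a piggyBac transgene with an EGFP cassette driven by the CAG promoter, which is active in most tissues, and linked to a DNA barcode. They were made from C57BL/6J eggs that received mPBase (transposase) mRNA by electroporation and the donor DNA by microinjection. F1_1 is 1 transgenic embryo of the F1 generation, and F1_mix is an artificial mosaic in which cells of 2 F1 embryos were mixed, so that it counts as 1 sample. All carry the transgene, none is an untreated control, and they were captured together in 1 gene expression library. A founder can itself be a mosaic of cells with different integrations. The 4 suspensions held 1792779 to 4377664 gene UMIs in cells of this type, with a median of 18369 per cell.

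Skeletal muscle of the trunk and limbs forms from somite cells that express Pax3 and Pax7. The myogenic factors Myf5, Myod1, Myog and Myf6 are basic helix-loop-helix proteins that bind E-boxes (CANNTG) and switch on muscle genes, with Myog acting as cells leave the cell cycle and fuse. Heart muscle is built from other progenitors, with Nkx2-5 and Tbx20 among its regulators and Myl7, Myl2, Nppa and Myh6 among its products, while sarcomere genes such as Actc1 and Tnnt2 are used by both tissues in the embryo. Mesenchyme of the limb, face and trunk is marked by Twist1, Prrx1 and Prrx2.

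A cell was called skeletal class when it had at least 2 UMIs over a list of 12 skeletal muscle genes and more of them than of 11 cardiac genes, cardiac class when it had at least 2 cardiac UMIs and at least as many as skeletal ones, and neither class otherwise. Of the 644 cells, 111 (17.2%) were skeletal class, 12 (1.86%) cardiac class and 521 (80.9%) neither class. Most cells under the muscle name therefore held at most 1 UMI of the skeletal list: 452 cells had 0 and 79 had 1. Another 30 cells had 2 or 3 UMIs and lay close to the limit, while 80 cells had 5 or more and 18 had 50 or more. Skeletal class cells had a median of 22985 gene UMIs and neither class cells 17552, and the depth of all cells ran from 3964 to 62361. When each cell was thinned to 5000 UMIs, which left out 4 shallower cells, 67 of 640 cells (10.5%) were skeletal class and 1 was cardiac class.

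The name was thus checked against 4 textbook markers of skeletal and heart muscle, which were chosen for this comparison. Myod1, a myogenic factor that sets muscle fate, had 96.7% of its UMIs of all cells in this type and was detected in 76 of the 644 cells. Myog, which drives differentiation, had 97.1% of its UMIs here and was detected in 63 cells. Tnnt2, the troponin T of embryonic heart and immature skeletal muscle, had 88.9% of its UMIs here but only 23 cells with a UMI. Myh7, the slow and cardiac myosin heavy chain, had 11 UMIs in 7 cells, and 2 other types had higher levels of it. The authors clustered the cells on their genes, so the place of these genes in this type is a description.

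**Figure D1:**
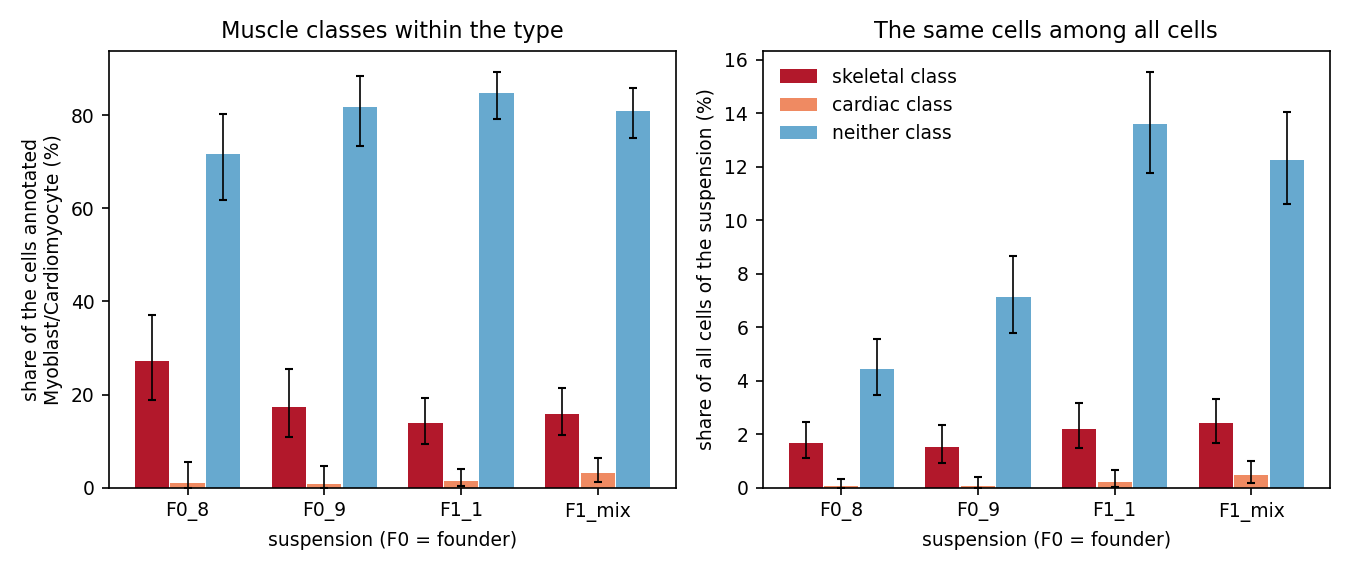
Share of cells in each muscle class, as a percentage of the cells annotated Myoblast/Cardiomyocyte (left) and of all cells of the suspension (right); bars are shares and error bars exact Clopper-Pearson 95% intervals for counting error. The neither class holds 71.7% to 84.8% of the type in every suspension, and the cardiac class 0.870% to 3.18%.

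The skeletal class made up 27 of 99 cells (27.3%) of founder F0_8 and 20 of 115 (17.4%) of founder F0_9. It made up 29 of 210 cells (13.8%) of F1_1 and 35 of 220 (15.9%) of F1_mix. The mean of the 4 shares was 18.6% ± 5.97 (SD, n = 4). The exact 95% intervals were 18.8% to 37.1% in F0_8 and 9.45% to 19.2% in F1_1, the highest and the lowest suspension. These 2 intervals overlap only between 18.8% and 19.2%, and an overlap is no test of the difference. Both founders lay above both F1 samples, and the two-sided exact permutation test gave p = 0.333, the smallest value that 2 samples against 2 allow. With each cell thinned to 5000 UMIs the groups overlapped, at 18.2% and 10.4% in founders F0_8 and F0_9, and 6.73% and 10.6% in F1_1 and F1_mix.

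The order was reversed when the same cells were counted among all cells of the embryo. Skeletal class cells were 1.69% of all cells and 1.52% in founders F0_8 and F0_9, and 2.21% and 2.41% in F1_1 and F1_mix. Neither class cells were 4.44%, 7.13%, 13.6% and 12.3% in the same order. Both classes were lower in the founders, by 0.71 percentage points for the skeletal class and by 7.14 for the neither class, each with an exact permutation p = 0.333. When skeletal class cells of any annotated type were counted, the founders were higher by 0.43 percentage points, with an exact permutation p = 1. In counts chosen after seeing the data, the founder minus F1 difference was -0.58 percentage points with the 4 myogenic factors alone in any type and -0.66 with Erythroblast and Erythrocyte left out, each with an exact permutation p = 0.333.

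The skeletal class held UMIs of each of the 12 list genes that defined it, so their values are a description. Levels below are UMIs per 10000 gene UMIs summed over the cells of a class. They come from 3′ tags that are not divided by transcript length, so each gene is compared between cells and not with other genes. Myog stood at 15.1 and 6.91 in founders F0_8 and F0_9, and 3.12 and 4.30 in F1_1 and F1_mix. Its 2 founder values were the highest, and it was detected in 53.2% of the class. Myod1 stood at 3.44, 3.34, 1.55 and 2.42 in the same order and was detected in 65.8% of the cells. Myf5, which acts earliest, showed 0.606, 0.567, 0.955 and 0.804, with the founders below the F1 samples. Myf6 had a level of 0.0811 over the class, with 0 UMIs in F0_9. At least 1 of these 4 factors was found in 98 of the 111 cells. The pair Myod1 and Myog was found in 50 cells, Myf5 and Myod1 in 38, and Myf5 without Myod1 or Myog in 16.

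The Myog start site is on chromosome 1 of GRCm38.p6, where the gene spans 134290004 to 134292548 on the plus strand. The 250 bases before it, at chr1:134289754-134290003 in RefSeq, are shown because Myog is one of the 4 markers looked at above and one of the genes that led the muscle cluster described further on, with the E-boxes (CANNTG, the same on both strands) in capitals.
Myog: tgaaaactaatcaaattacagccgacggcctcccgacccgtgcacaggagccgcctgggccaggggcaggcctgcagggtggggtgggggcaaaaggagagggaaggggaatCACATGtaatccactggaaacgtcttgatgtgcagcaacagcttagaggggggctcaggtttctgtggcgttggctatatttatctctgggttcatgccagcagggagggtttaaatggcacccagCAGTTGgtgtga
Its 2 E-boxes read CACATG and CAGTTG. An E-box of this form was present in 66.2% of all 32851 promoters of that length, so most promoters hold one. Among the 12 genes of the skeletal list, 7 had a promoter in the table and 6 of the 7 held an E-box.

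Genes of fusion and of the muscle surface were found in the same class, as members of the list that defined it or beside them. Mymk, the fusion protein myomaker, had 1.61, 0.567, 0.229 and 0.309 UMIs per 10000, with the founders first in the order used above. Mymx, myomixer, had 3.58, 1.70, 0.323 and 1.22, and 0 UMIs in the neither class. Cdh15, the muscle cadherin, was the most widely detected member of the list, in 77.5% of the cells. For the nerve contact, Chrna1, Chrng and Rapsn (2 receptor subunits and their clustering protein) had levels of 0.328, 0.240 and 0.475, and Chrne, the subunit of the adult receptor, had 0 UMIs in the type. Of the 14 genes of excitation and the receptor, 9 lay in every suspension above every neither class value and none lay below. Across the 10694 genes with at least 50 UMIs in both classes together, 6.85% lay above in this way and 12.5% below. Members are counted at any level, including those under 50 UMIs, and 2 of the 9 (Chrna1 and Chrng) were in the list that chose the cells.

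The class rule used 3 sarcomere genes, Mylpf, Tnnt3 and Myh3. A second list of 16 contractile genes, which the rule did not use, was high in the same cells. Of these 16 shared contractile genes, 14 were above the neither class in every suspension without overlap, against 6.85% of all genes. Actc1, the actin of embryonic muscle and heart, stood at 24.4 and 6.54 in founders F0_8 and F0_9, and 4.37 and 4.91 in F1_1 and F1_mix, against 0.00941 over the neither class. Ttn, the titin scaffold, stood at 6.94, 3.38, 2.06 and 2.51. Tnnt1, slow troponin T, was found in 87.4% of the skeletal class and 8.83% of the neither class. Tnnt2 stood at 3.57, 0.850, 0.767 and 0.396, so that F0_8 was far above the other suspensions. The level of the whole contractile list in the skeletal class was 81.5 and 27.0 in founders F0_8 and F0_9, and 18.2 and 20.2 in F1_1 and F1_mix, with an exact permutation p = 0.333 for founders against F1.

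**Figure D2:**
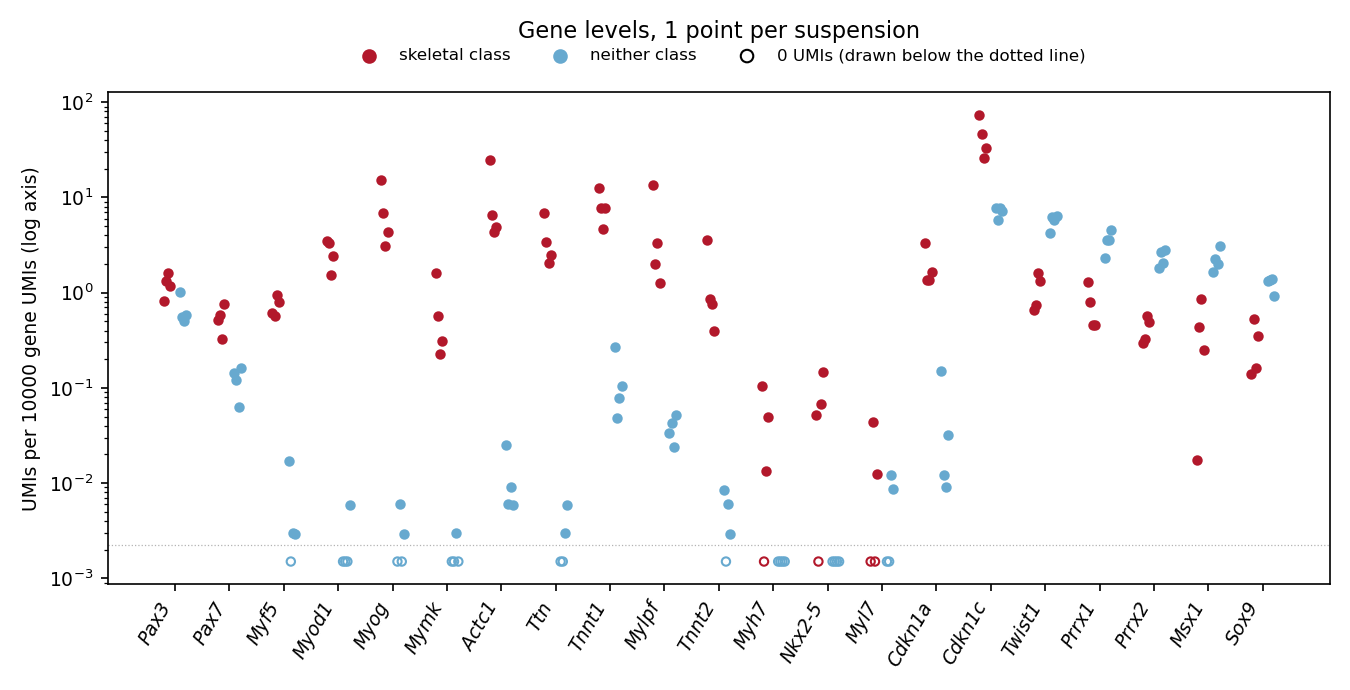
Levels (UMIs per 10000 gene UMIs, log axis) of named genes in the skeletal class and the neither class, 1 point per suspension, with open points for 0 UMIs. Myogenic and sarcomere genes separate the classes, mesenchyme genes such as Twist1 are lower in the skeletal class, and Myh7, Nkx2-5 and Myl7 stay at or under 0.148.

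These UMIs were concentrated in few cells. The 10 cells with the most UMIs held 76.6% of the Actc1, 93.0% of the Mylpf (fast myosin light chain), 91.1% of the Tnnt2 and 98.2% of the Acta1 (adult skeletal actin) UMIs of the type. Myod1 was spread more evenly, with 44.6% in its 10 highest cells, and Cdh15 more evenly still, with 27.2%. A level of Actc1 or Tnnt2 in a suspension is therefore the level of a handful of cells.

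The skeletal class cells were split by their Myog UMIs, with limits of 1 and 20 set after the values were seen. The 52 cells with 0 Myog UMIs had a median of 10.5 contractile UMIs, the 39 cells with 1 to 19 had 22, and the 20 cells with 20 or more had 190. These 20 cells held 79.8% of the contractile UMIs of the class; the founders F0_8 and F0_9 gave 9 and 3 of them, and F1_1 and F1_mix 3 and 5. Mymk had 151 of its UMIs in these 20 cells and 10 in the other 91. Pax7, a marker of muscle progenitors, stood at 0.529 and 0.792 in the cells with 0 and with 1 to 19 Myog UMIs and at 0.0705 in the 20 cells. Pax3 stood at 1.61, 1.29 and 0.165 in the same order, and Myf5 at 0.840, 0.771 and 0.517. When the cells were split only by whether Myog was detected, Pax3 or Pax7 was found in 69.5% of the 59 cells with Myog and 69.2% of the 52 without. The share of cells with Myog was 70.4% and 50% in founders F0_8 and F0_9, and 37.9% and 54.3% in F1_1 and F1_mix, with exact intervals that overlap and an exact permutation p = 0.667.

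**Figure D3:**
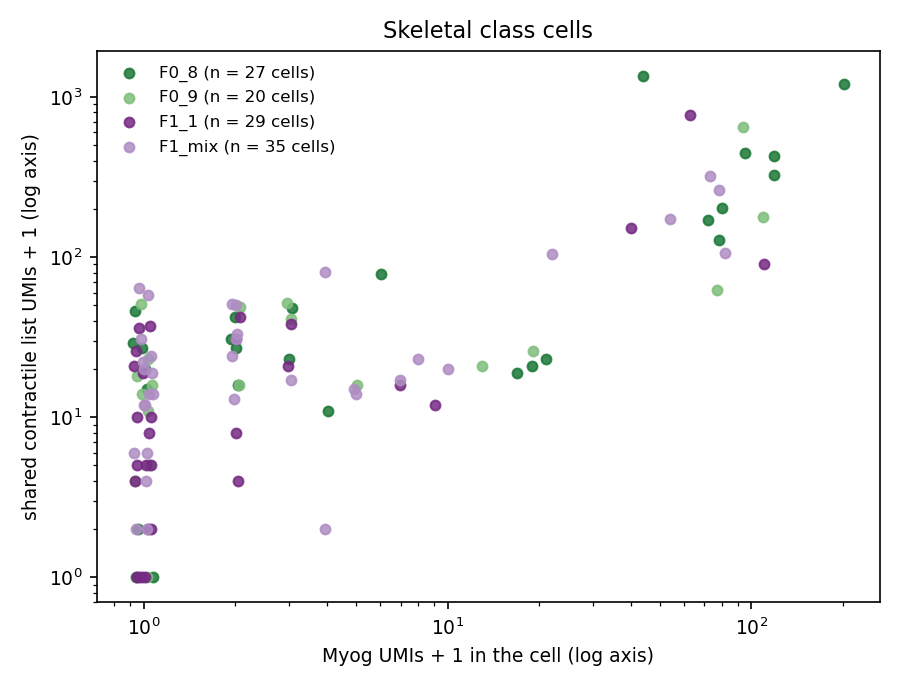
Myog UMIs against UMIs of the 16 shared contractile genes in each of the 111 skeletal class cells, both plus 1 on log axes and coloured by suspension, with points shifted slightly along the Myog axis so that they do not hide each other. Cells with 20 or more Myog UMIs carry 22 to 1354 contractile UMIs, and all 4 suspensions contribute to them.

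Cell cycle genes were lowest in the cells with the most Myog. The 10 genes of G2 and M phase summed to 24.5 UMIs per 10000 in the cells with 0 Myog UMIs, 24.0 in those with 1 to 19 and 11.3 in the 20 cells with the most Myog. The 10 S phase genes summed to 18.1, 16.6 and 5.55. Cdkn1a, the cyclin-dependent kinase inhibitor p21, stood at 0.218, 0.730 and 9.19 in the same order, and Cdkn1c, the inhibitor p57, at 21.6, 34.3 and 120. These sums are descriptions over cells of 4 suspensions. Per suspension, the G2 and M phase level of the whole skeletal class was 0.821, 0.826, 0.919 and 0.643 times that of the neither class, a mean of 0.802 ± 0.115 (SD, n = 4) and under 1 in each. Hmgb2 was the largest part of this sum, at 9.92 in the skeletal class and 14.3 in the neither class. Of the 10 genes only Hmgb2 was below without overlap, against 12.5% of all genes. Top2a, Cdk1, Ccnb1 and Ube2c were each higher in the skeletal class in 2 of the 4 suspensions. The S phase ratio was 0.648, 1.01, 0.858 and 0.884, so F0_9 was not under 1. Between cells with and without Myog the order also differed by suspension: in F0_9 the G2 and M phase level was 26.5 with and 20.9 without Myog, and in F1_1 the S phase level was 18.7 with and 15.6 without it. Cdkn1c in the skeletal class stood at 73.8, 46.3, 26.1 and 33.0, against 7.22 over the neither class. Of the 6 genes of cell cycle exit, 4 were above without overlap and 1, Cdkn1b (the inhibitor p27), was below, against 6.85% and 12.5% of all genes, and nothing is read from a single member below.

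Progenitor genes differed in how far the classes shared them. Of the 12 myogenic progenitor genes, 7 were above the neither class without overlap, against 6.85% of all genes. Meox2 was below, 1 of 12 against 12.5% of all genes, so nothing is read from it. Pax3 stood at 1.25 in the skeletal class and 0.607 in the neither class, and Meox1 at 0.711 and 0.468, and for both the classes overlapped. Lbx1, a marker of migrating limb muscle precursors, was detected in 27.0% of the skeletal class and 0.768% of the neither class. Msc (musculin) was found in 45.9% of the skeletal class and 2.11% of the neither class. Acta2, the smooth muscle actin that early skeletal muscle also uses, stood at 14, 8.59, 3.47 and 6.70 in the skeletal class, whereas Myh11 and Actg2, markers of mature smooth muscle, had 0 UMIs there. Of the 4 Mef2 factors, partners of the myogenic factors, Mef2c and Mef2d were above without overlap, against 6.85% of all genes. Mef2a and Mef2b were not. Of the 15 Notch genes, 3 were above (Hes6, Hey1 and Notch3) and 2 below, against 6.85% and 12.5% of all genes, so the share below is near that of all genes.

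Cardiac genes were rare. Over the 644 cells, Myl2, Nppa, Nppb and Mybpc3 had 0 UMIs each, which allows a level of up to 0.00242 UMIs per 10000. Myl7, the atrial light chain, had 17 UMIs, a level of 0.0137 against 0.0260 in all other cells. The cardiac list as a whole stood at 0.0863 here and 0.139 in all other cells, so that 11 of the 16 annotated types had a higher level. No cell of the type had UMIs of 3 or more cardiac genes. The 12 cardiac class cells had 2 to 5 cardiac UMIs each; 5 passed on Nkx2-5 alone and 3 on Myl7 alone, and none of the 12 had a UMI of Actc1 or Tnnt2. Each founder had 1 such cell, F1_1 had 3 and F1_mix 7. Outside the type, 73 of 5034 cells (1.45%) met the same rule, but those cells include types of much lower depth. The share was 1.01% in Mesodermal Progenitor at a median depth of 18842 and 1.99% in Epithelial Cell at 16938. It was 5.26% in Hematoendothelial Progenitor/Endothelium at 17279.5, against 1.86% at 18369 here. The share here thus lies within what other types show. Of the 11 cardiac genes 1 was above the neither class without overlap, a share near the 6.85% of all genes. It was Tnni3, at 0.0519, 0.0436, 0.0807 and 0.0618 in the skeletal class. The class rule limits a neither class cell to 1 cardiac UMI but not a skeletal class cell. This comparison is therefore partly set by the rule.

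Nkx2-5 was the exception in that 42 of its 50 UMIs of all cells were in this type. They lay in 10 cells, 5 of the skeletal and 5 of the cardiac class, and since Nkx2-5 is on the cardiac list the rule itself places most such cells in a class. By cluster, 7 of the 10 were in cluster 2 and 3 in cluster 6, which are described further on. Of these 10 cells, 8 had Tcf21, 6 Tbx1 and 5 Msc, which are regulators of head muscle progenitors, against 7.30%, 5.90% and 9.94% of all cells of the type. Others of the genes looked at were in fewer of them: Lhx2 was in 2 of the 10 cells against 17.2% of the type, and Isl1 in 2 against 9.94%. Myf5 was found in 6 of the 10 and Myod1 in 5, and 1 of the 10 had a UMI of Tnnt2 or Actc1. These cells were picked after Nkx2-5 had been seen, and their counts are a description.

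The neither class expressed mesenchyme genes. Twist1, Prrx1 or Prrx2 was detected in 479 of the 521 cells (91.9%), and Col1a1 or Col3a1, fibrillar collagens, in 462 (88.7%). The part of free RNA in these 2 shares was not tested. Twist1 stood at 5.87 in the neither class and 1.16 in the skeletal class, Prrx1 at 3.76 and 0.703, and Prrx2 at 2.39 and 0.440. Of the 14 limb mesenchyme genes, 10 were below in the skeletal class without overlap, as were 5 of 8 dermal and trunk genes and 6 of 10 craniofacial genes, against 12.5% of all genes. Sim1, of the dermal and trunk list, was above without overlap, at 0.282 in the skeletal class and 0.0460 in the neither class. Myog and Myod1 had 2 UMIs each over the 521 cells, a level of 0.00209. In barcodes of 100 to 300 UMIs that were in no suspension, Twist1 stood at 1.42, Myog at 0.342 and the skeletal list at 0.912. The list stood at 0.0805 in the neither class, lower than in those barcodes, as the limit of 1 UMI per cell requires.

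In the neither class, 71 of the 521 cells (13.6%) had a shared contractile gene at 2 or more UMIs, from 5.32% in F0_9 to 19.7% in F0_8. The contractile list stood at 0.432 UMIs per 10000 there, against 2.51 in barcodes of 100 to 300 UMIs and 1.60 below 100. Some cells held more, such as 28 contractile UMIs among 25495 in an F0_8 cell and 13 among 20600 in an F1_mix cell. Both were in the muscle cluster described further on. The part of free RNA in these contractile UMIs was not tested. Pax3 and Pax7, which mark muscle progenitors, were looked for in the same class. One or both were detected in 28.2% of the neither class and 20.2% in founders F0_8 and F0_9, and 24.2% and 25.8% in F1_1 and F1_mix, a mean of 24.6% ± 3.35 (SD, n = 4). The exact intervals of the 4 suspensions overlapped. A UMI of either gene was found in 3.47% of Erythroblast cells, which should lack both, at a median depth of 29076, against 17552 in the neither class. The share was 11.3% in Epithelial Cell at 16938 and 48.6% in Neuronal Progenitor at 13388. In barcodes of 100 to 300 UMIs Pax3 stood at 1.76, above its 0.607 in the neither class. The part of free RNA in these shares was not tested. Both genes also mark neural crest and dorsal neural tissue, and Pax3 was at a higher level in 6 other annotated types.

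An unsupervised clustering of the 644 cells gave 7 clusters, numbered by size. Genes that lead a cluster were also used to make it, so their values describe it. Cluster 2, with 106 cells, was skeletal muscle-like, led by Myog, Ttn, Actc1, Myod1, Myl1, Fitm1, Vgll2 and Neb; it held 97 of the 111 skeletal class cells, 2 cardiac class cells and 7 neither class cells. Of the type it was 27.3% and 15.7% in founders F0_8 and F0_9, and 11.9% and 16.4% in F1_1 and F1_mix. The same 106 cells, with 1 more under 1 setting, came apart from the rest under each of 4 other settings of the clustering, in 1 or 2 clusters. No cluster was led by cardiac genes.

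**Figure D4:**
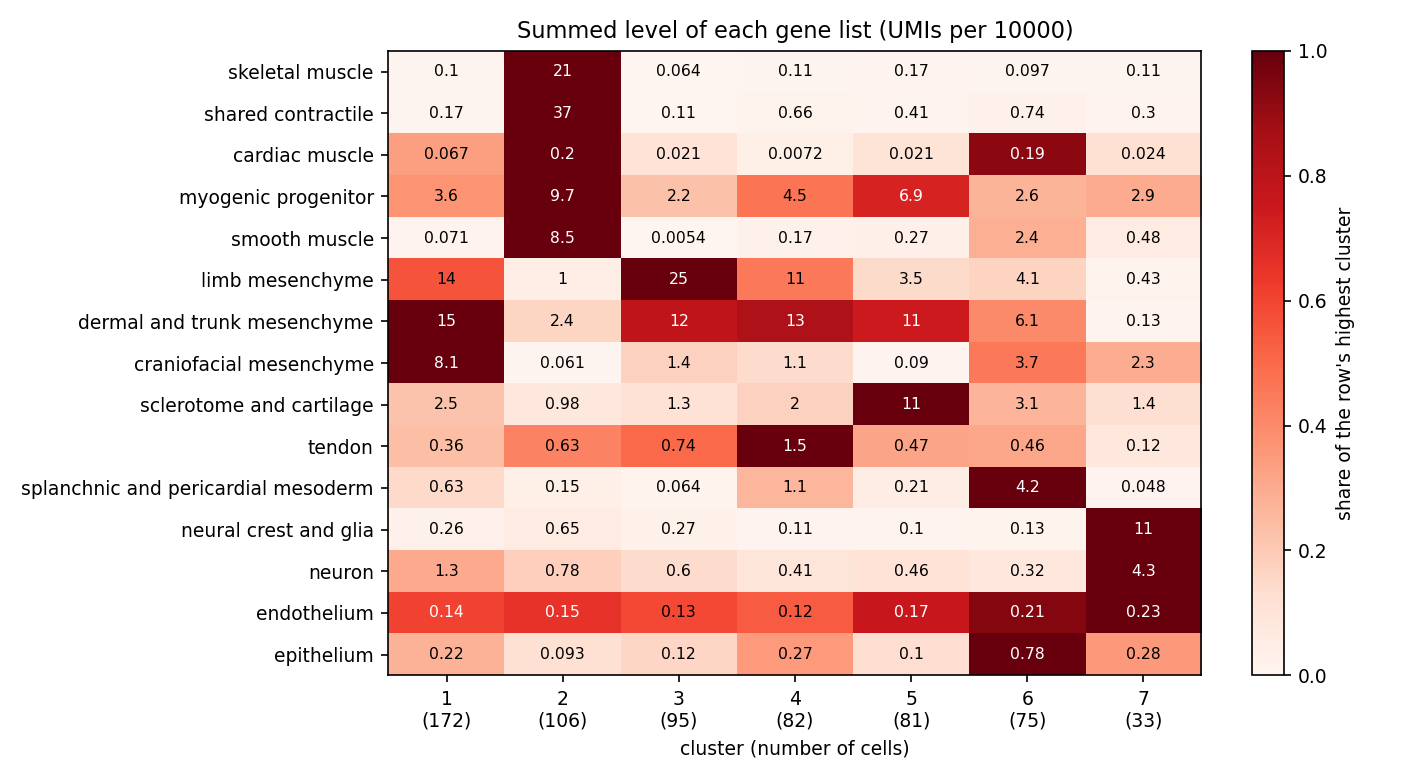
Summed level of each gene list (UMIs per 10000 gene UMIs, printed in each field) in the 7 clusters, with the number of cells in brackets and each row coloured relative to its highest cluster. Muscle lists peak in cluster 2, limb genes in cluster 3, sclerotome genes in cluster 5 and neural crest genes in cluster 7, and the cardiac list stays at or under 0.203.

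The other cells fell into 6 clusters. Cluster 1, the largest with 172 cells, expressed Lhx8, Dlx5, Alx1 and Barx1, regulators of facial mesenchyme, with Runx2 and Gsc. The craniofacial list stood at 8.11 in it, and it had Pax3 in 39.5% of its cells. Of the type it was 16.2% and 21.7% in founders F0_8 and F0_9, and 31.4% and 29.5% in F1_1 and F1_mix. Its top genes also included the globins Hbb-y and Hba-x, which came from 1 cell of F0_9 with 16213 globin UMIs among 62361, the deepest cell of the type. Without that cell it was led by Lhx8, Dlx5, Runx2, Gsc, Alx1, Cxcl14, Rspo2 and Barx1. It was given no name, since clusters were named from all of their cells and globins were then among its leading genes.

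Cluster 3, with 95 cells, was limb mesenchyme-like. It was led by Hoxd13, Lhx9, Lhx2, Hoxd12 and Hoxa13, genes of the distal limb bud, with Cyp26b1, which degrades retinoic acid. Hoxd13 was found in 72.6% and Lhx9 in 82.1% of its cells. Tbx4, the hindlimb factor, was found in 48.4% and Tbx5, the forelimb factor, in 32.6%. Its G2 and M phase level of 39.2 was the highest of the 7 clusters.

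Cluster 4, with 82 cells, was led by Dmrt2, Shox2, Emx2, Tbx18, Dkk2, Lum, Fibin and Scx. These mark different tissues, and the cluster was given no name. Scx, a tendon progenitor factor, was found in 52.4% of its cells and Meox2 in 42.7%. It held 4 and 15 cells of founders F0_8 and F0_9, and 31 and 32 of F1_1 and F1_mix.

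Cluster 5, with 81 cells, was sclerotome-like, led by Hoxc13, Pax1, Zic4, Sparcl1, Uncx and Foxc2, the group that includes the factors of the vertebral anlagen. Sox9, which drives cartilage formation, was found in 84.0% of its cells, Meox1 in 61.7% and Meox2 in 65.4%. The sclerotome and cartilage list stood at 11.5 in it and at no more than 3.08 in the other clusters.

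Cluster 6, with 75 cells, was led by Foxf1, Tcf21, Zfpm2, Prdm6 and Krt18, with Aldh1a2, the enzyme of retinoic acid synthesis. Foxf1 marks splanchnic mesoderm. Only 1 of its leading genes was on the splanchnic and pericardial list, and it was left without a name. It held 6 of the 12 cardiac class cells and the heart regulators Gata4 in 9.33% and Gata6 in 22.7% of its cells, but Myl7 in only 8%.

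Cluster 7, with 33 cells, was neural crest-like. Sox10 and Foxd3, factors of neural crest and early glia, were each found in 90.9% of its cells. Neurog1 and Prdm12, factors of sensory neuron progenitors, led it as well. Its dermal and trunk mesenchyme level was 0.132, against 2.43 to 15.2 in the other clusters. It held 3 and 6 cells of founders F0_8 and F0_9, and 12 and 12 of F1_1 and F1_mix, and its cells had a median of 24850 gene UMIs.

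Profiles over the 2000 variable genes were compared with the other annotated types, as a description with no test. The nearest type was Mesodermal Progenitor for clusters 1, 3, 4, 5 and 6, with Spearman correlations of 0.867 to 0.926 across genes, and Ependymal Cell for cluster 7 (0.775). For cluster 2 the nearest type was Mesodermal Progenitor too, at 0.681. Each of the 7 clusters correlated more with its nearest other type than with any other cluster of its own type. For cluster 2 the gap was small, at 0.681 against 0.676 with cluster 4. The pools differ in size, with 33 to 172 cells a cluster and 496 in Mesodermal Progenitor. The part of pool size in these correlations was not tested. Libraries are shared between all of them, and genes are not independent replicates.

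The same rule was then applied to the rest of the embryo. Outside the type, 170 of 5034 cells (3.38%) passed the skeletal class limit. Erythroblast held 60 of them, 41.7% of its cells, and 162 of the 163 list UMIs of those cells were Mylpf. The share was 3.23% in Mesodermal Progenitor at a median depth of 18842, 1.01% in Neuronal Progenitor at 13388 and 0 of 151 cells in Epithelial Cell at 16938, against 17.2% at 18369 here. It was 10% in Erythrocyte at 24289, 4.78% in Neuroectoderm/Glia at 11437.5 and 4.14% in CNS Neuron at 10898.5, and at most 3.04% in the types not named here. With only Myf5, Myod1, Myog and Myf6 counted, 91 cells of the type (14.1%) and 14 cells outside it (0.278%) had 2 or more UMIs.

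**Figure D5:**
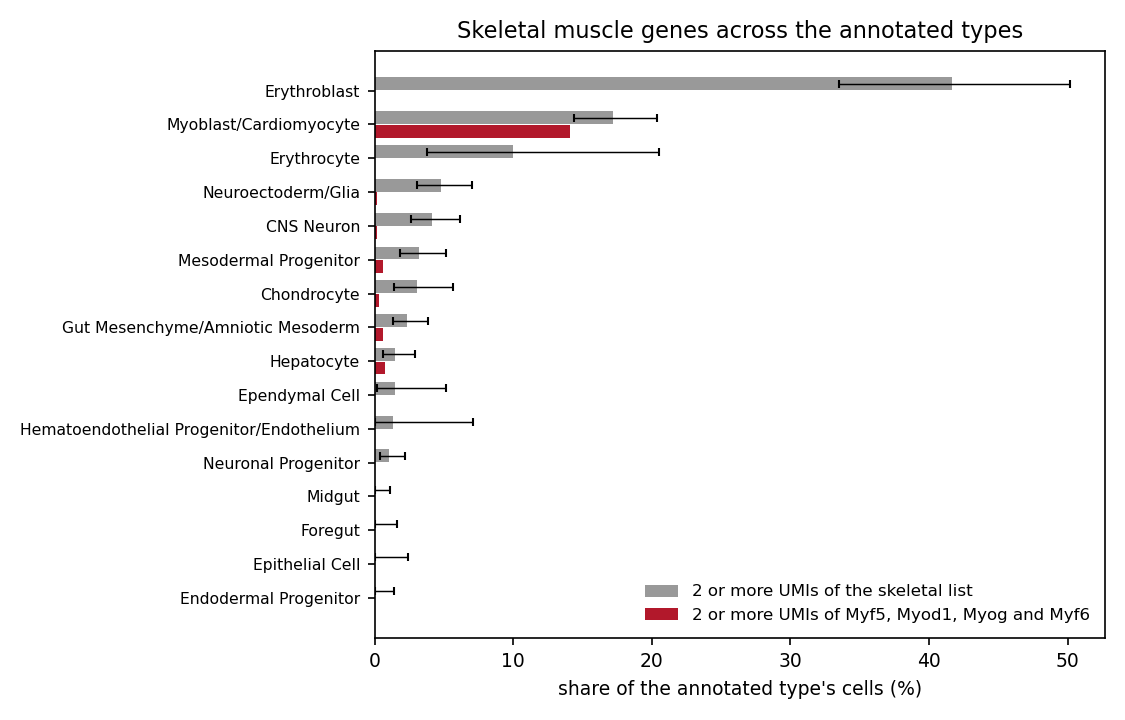
Share of cells with 2 or more UMIs of the 12-gene skeletal list (grey, with exact 95% intervals) and of the 4 myogenic factors alone (red) in each of the 16 annotated types. Erythroblast is highest for the list at 41.7% but has no cell with the factors, while 14.1% of Myoblast/Cardiomyocyte cells have them and no other type exceeds 0.737%.

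Founders were compared with F1 samples on summed counts of the type, to ask whether muscle or mesenchyme genes differ between generations. In bulk sums, fewer cells of a kind and less RNA per cell cannot be told apart. edgeR's quasi-likelihood test with Benjamini-Hochberg adjustment called 0 of 11259 genes (0%) at 0.05, while 1051 genes had an unadjusted p under 0.05. DESeq2 called 37 genes. Without F0_9 edgeR called 359 genes and without F0_8 it called 49, while it called 0 without F1_1 and 0 without F1_mix. Myog stood at 4.87 and 1.502 in the founders and 0.566 and 0.8003 in the F1 samples, a log2 difference of 2.21 ± 0.47 (SE) with an edgeR adjusted p = 0.285. Myod1 stood at 1.13 and 0.723 against 0.280 and 0.453, a log2 difference of 1.32 ± 0.26 with an edgeR adjusted p = 0.229. The groups did not overlap for either gene, and neither gene passed.

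No list had a called member. Of the 12 skeletal muscle genes 11 were tested, with a median log2 difference of 1.92, and of the 10 craniofacial genes 10, with a median of -0.995, against 0.0025 for all genes tested. Lists of other tissues lay as far from the median of all genes. The red blood cell list had a median of 4.35, the shared contractile list 2.16 and the neuron list 1.17. The splanchnic and pericardial list had a median of -1.16. Barx1, a craniofacial gene named after its values were seen, stood at 0.363 and 0.326 in the founders and 1.34 and 0.963 in the F1 samples, with an edgeR adjusted p = 0.0755 over the type and 0.0493 over neither class cells alone. Of the 7 clusters Barx1 was highest in cluster 1, at 2.58. That cluster was a smaller share of the type in both founders than in both F1 samples. The part of this share in the Barx1 difference was not tested. Among skeletal class cells alone, edgeR called 0 of 7815 genes, with 535 at an unadjusted p under 0.05, and the log2 difference of Myog was 1.59 with an adjusted p = 0.239. The 4 samples are separate suspensions in 1 capture, and the p-values measure only the spread between them.

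EGFP, the transgene, had a UMI in all 644 cells of the type and so in all 111 skeletal class cells. The same held for all 496 Mesodermal Progenitor cells, while 65.3% of Erythroblast cells had one, at a level of 1.31 UMIs per 10000. In barcodes of 100 to 300 UMIs it stood at 7.83, and in those under 100 at 13.3, so a UMI alone does not show expression in a cell. Its level in the skeletal class was 14.97 and 10.9 in founders F0_8 and F0_9, and 23.8 and 9.57 in F1_1 and F1_mix. The ratio of the skeletal to the neither class was 1.44, 1.20, 0.956 and 0.956, a mean of 1.14 ± 0.23 (SD, n = 4). The founders were above 1 and the F1 samples below it, with an exact permutation p = 0.333. Per cluster the level ran from 9.43 in the limb mesenchyme-like cluster 3 to 19.5 in cluster 7, and these pool suspensions of different levels.

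Cells of other lineages were few in the type. The endothelium list stood at 0.157 UMIs per 10000 in the type and 0.469 in all other cells, the epithelium list at 0.241 and 1.11, and the macrophage list at 0.0355 and 1.18. The liver list stood at 0.0169 and 0.466, but 0.450 of the latter was Ttr, which was highest in Ependymal Cell, so this difference says nothing of liver cells. Tie1, Afp, Fgb, Serpina1a and Tyrobp had 0 UMIs in the type. The red blood cell list stood at 14.2, and 16213 of its UMIs were in the single cell of F0_9 already described. The median doublet score of the authors was 0.273 in the skeletal class and 0.262 in the neither class, and the mitochondrial share was at most 5.37% in any cell of the type.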

How the data were processed

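Cells of 4 E11.5 suspensions, multiplexed with oligo tags in 1 10x 3′ library, were counted by the authors against GRCm38 with EGFP added (Cell Ranger 7.2.0 in the headers of the files). The deposited values used are UMI counts per gene and cell, before the authors' removal of free RNA, and each contains molecules counted once by identifier. The cell type and the doublet score were taken from the deposited cell table, whose doublets the authors had removed with DoubletFinder, and 18 other columns were not used. Of 6006 deposited barcodes 5678 were in that table; counts covered 21937 genes, and 12 tag features were left out. The members and gene lists were chosen with earlier results of these data known.

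Levels are UMIs per 10000 gene UMIs. Shares have exact Clopper-Pearson 95% intervals, which cover counting error only, as do floors of 3 counts. Cells are not replicates: suspensions were compared by two-sided exact permutation tests, for which 2 against 2 cannot go below 0.333. Founders were compared with F1 samples on summed counts with edgeR 4.0.16 (TMM, filterByExpr, quasi-likelihood test, Benjamini-Hochberg threshold 0.05; R 4.3.3), with DESeq2 1.42.0 as an alternative, and the procedure was tested on simulated data. Clusters used scanpy 1.11.5 and leidenalg 0.10.2 (2000 variable genes, 20 components, 15 neighbours, resolution 0.6, EGFP and mitochondrial genes left out). Leading genes were the 8 of largest fold with a level of at least 0.5 and detection in at least 20% of a cluster; other genes are list members, at most 6 a list with the highest levels, and further genes were named after their values were seen. Alternatives covered the UMI limit, thinning to 5000 UMIs, mitochondrial share, lists, scaling, filters, clustering and leaving out each suspension. Some list members are not reported here.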

Additional observations from a re-analysis of the deposited data

Results flagged for a closer look

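The level of Tnnt2 in skeletal class cells of F0_8, 3.57 UMIs per 10000, was far from the other suspensions (0.850, 0.767 and 0.396). It was the only one of 13 levels tested in this way to stand apart, and chance flags about 1 in 20 groups. The 10 cells with the most Tnnt2 held 91.1% of its UMIs in the type.

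Muscle UMIs also appeared outside the annotated type. In cells annotated Hepatocyte, 7 of 543 had 50 or more UMIs of the skeletal and contractile lists per 10000, with up to 487, and 3 came from F0_8, 2 from F1_1 and 2 from F1_mix. They had 1132 to 4439 gene UMIs and a median mitochondrial share of 22.5%, against a median of 2.18% in Myoblast/Cardiomyocyte cells, and held 142 Ttn, 51 Neb and 45 Actc1 UMIs and 0 of the cardiac list. In the Myoblast/Cardiomyocyte type 19 cells passed the same limit, and in Endodermal Progenitor 1. The limit was chosen after the data were seen, and the part of the mitochondrial share in this was not tested.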

How the results depend on the processing

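The mean skeletal class share was 29.5% with a minimum of 1 UMI and 11.5% after thinning to 5000 UMIs. The cardiac share was 6.13% with 1 UMI, 0.366% with 5 and 0.115% thinned, and the neither share 64.4%, 86.2% and 88.4%. The Pax3 or Pax7 share of the neither class was 19.9% both with 2 UMIs and thinned. The founder difference in skeletal class cells among all cells reversed to 0.43 when cells of any type counted, but not in 2 counts chosen after seeing the data, without Erythroblast and Erythrocyte or with only the 4 factors. The G2 and M phase ratio was 0.646 thinned, and 11 clusters formed at resolution 1. Between generations 136 genes were called without a filter, 37 by DESeq2 and 11 in neither class cells; the causes were not tested.

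Leaving out 1 suspension gave skeletal shares of 15.7% to 20.2%, cardiac shares of 1.10% to 1.87%, neither shares of 78.1% to 82.5%, Pax3 or Pax7 shares of 23.4% to 26.1%, G2 and M phase ratios of 0.763 to 0.855, EGFP ratios of 1.04 to 1.20, and 0 to 359 genes called between generations; with a lone sample in an arm, it is assumed to vary like the other group. No paired analysis was possible because the suspensions of the 2 generations share no replicate numbers. Depth limits cells with few list UMIs, and 2 suspensions a generation limit every test.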
